A study of Mus musculus with 8 samples.

Results

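Levels of 5 mouse transcripts, of purine signalling and of the protein named folate receptor 4, were followed in sorted T follicular helper (Tfh) cells: P2rx7, Entpd1, Nt5e, Adora2a and Izumo1r. They were picked by gene symbol from the gene count tables, where all 5 were present among the 16735 genes that the tables of both experiments hold, and all 5 were among the 14418 genes with enough counts to be tested. The cells came from K/BxN mice, which develop arthritis spontaneously, carrying a Th17 fate-mapping reporter. Such a reporter keeps a cell fluorescent (ZsGreen+) once it has been in the Th17 state, and the Cre driver behind it is not named in the labels. There were 4 groups of 2 bulk mRNA libraries: Peyer's patch ZsGreen+ (labelled ZG), Peyer's patch ZsGreen- (labelled control), spleen ZsGreen+ and spleen ZsGreen-. All were enriched for CD4+ cells and sorted as TCRβ+, CXCR5+, PD-1+ and CD25-, so every group carries the K/BxN background and the reporter, and the sources used here give neither the ages of the mice nor how many were pooled. In each group, replicate 1 is from the first of 2 experiments and replicate 2 from the second. The labels do not say that replicates came from separate animals, so the p-values measure only how these samples vary, and that spread may be technical.

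ATP that leaves cells is read by the P2X7 channel, encoded by P2rx7, which opens at high ATP and can kill T cells. In mouse Peyer's patches P2X7 is known for restraining Tfh cell numbers and, through them, germinal centre help. CD39 (Entpd1) degrades ATP and ADP to AMP, and CD73 (Nt5e) turns AMP into adenosine. Adenosine acts on the receptor encoded by Adora2a, which raises cyclic AMP and dampens T cell receptor signals. Izumo1r encodes folate receptor 4, known in the egg as Juno, the receptor for sperm, and in mouse T cells as a surface marker of regulatory and of anergic CD4+ cells, where it is found together with CD73.

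Both P2rx7 starts, both Entpd1 starts and the Izumo1r start are shown. P2rx7 was called higher in Peyer's patch in both sorts, and Entpd1 lower there in ZsGreen- cells only. Izumo1r was called lower in ZsGreen+ cells of both tissues. Each sequence is the 250 bases before an annotated start, read along the gene's strand from RefSeq's promoters on GRCm38.p6. There 4 of the 5 genes matched, with 6 starts in all. Adora2a, called lower in Peyer's patch in both sorts, is absent because it was not matched. Capitals mark the motifs searched on both strands: AGGTCA (the half-site of ROR factors), TGANTCA (AP-1), TTCNNNGAA (STAT) and GGGCGG (GC box).
P2rx7 start 1, chr5:122643677-122643926, plus strand: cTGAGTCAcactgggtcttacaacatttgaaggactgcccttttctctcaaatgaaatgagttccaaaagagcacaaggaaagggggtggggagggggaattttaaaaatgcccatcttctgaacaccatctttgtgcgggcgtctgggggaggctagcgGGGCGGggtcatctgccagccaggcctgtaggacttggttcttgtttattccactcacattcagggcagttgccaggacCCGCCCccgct
P2rx7 start 2, chr5:122650133-122650382, plus strand: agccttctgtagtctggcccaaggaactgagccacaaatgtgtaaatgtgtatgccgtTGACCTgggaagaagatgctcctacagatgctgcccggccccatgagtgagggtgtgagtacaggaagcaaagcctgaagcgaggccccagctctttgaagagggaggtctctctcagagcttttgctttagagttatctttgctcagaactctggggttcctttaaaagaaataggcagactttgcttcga
Entpd1 start 1, chr19:40612116-40612365, plus strand: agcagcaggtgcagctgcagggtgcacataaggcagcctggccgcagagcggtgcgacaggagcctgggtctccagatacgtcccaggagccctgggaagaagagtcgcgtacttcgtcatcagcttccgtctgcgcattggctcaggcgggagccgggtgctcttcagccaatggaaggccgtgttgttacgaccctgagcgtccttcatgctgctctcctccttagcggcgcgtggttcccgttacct
Entpd1 start 2, chr19:40659520-40659769, plus strand: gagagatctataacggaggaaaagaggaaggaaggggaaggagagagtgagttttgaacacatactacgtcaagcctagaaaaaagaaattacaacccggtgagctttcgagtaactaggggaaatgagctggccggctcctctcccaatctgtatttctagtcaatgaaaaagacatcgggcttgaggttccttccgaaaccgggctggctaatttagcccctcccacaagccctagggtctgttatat
Izumo1r start, chr9:14903768-14904017, minus strand: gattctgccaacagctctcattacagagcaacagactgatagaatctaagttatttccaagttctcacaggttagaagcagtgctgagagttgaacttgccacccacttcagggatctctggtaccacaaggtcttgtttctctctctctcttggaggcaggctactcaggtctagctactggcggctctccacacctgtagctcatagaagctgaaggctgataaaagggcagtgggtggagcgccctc
The first P2rx7 start had 1 AP-1 match, which begins 249 bases before the start, and 2 GC boxes, and the second had 1 ROR half-site in its reverse letters, 192 bases before the start. None of these letters occurs in the Entpd1 and Izumo1r windows shown, and the Nt5e window held 4 GC boxes in 2 overlapping pairs. Over all 32851 RefSeq promoters of this length, 14% held the ROR half-site, 6.75% the AP-1 letters, 7.02% the STAT letters and 32.7% a GC box. These matches are a description of the letters. The counts are per gene, so they do not say which P2rx7 or Entpd1 start was used.

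Total estimated counts per library were 10009823 to 15323743. The libraries of the experiments lay apart: 71.1% of genes (10248) differed between experiment 2 and experiment 1 at an edgeR adjusted p under 0.05, so every comparison was made within experiments by a term for the experiment. Of the 5 genes, P2rx7 was lower in experiment 2 than in experiment 1 by a log2 fold change of -1.79 (edgeR adjusted p = 9.48e-09). Adora2a was lower by -1.99 (edgeR adjusted p = 1.63e-06) and Nt5e by -0.94 (edgeR adjusted p = 0.0379), while Izumo1r was higher by 0.89 (edgeR adjusted p = 3.18e-05). Entpd1 had -0.64 (edgeR adjusted p = 0.283). All 8 CD4 T cell and all 10 Tfh markers listed for the check of the sort were above 0 in every library. This cannot show how pure the sort was. In replicate 1 of both Peyer's patch groups all 11 B cell and all 10 myeloid markers were above 0 too. The CD4 T cell markers summed to 4831 to 5292 CPM (defined below) in experiment 1 and 16498 to 35097 CPM in experiment 2. The B cell markers summed to 6.09 to 105 CPM over all libraries, and the myeloid markers to 10.1 to 39.2 CPM. Of 10 Th17 markers, 4 rose in ZsGreen+ cells in Peyer's patch and 9 in spleen, where 0.284% and 4.53% of all genes rose.

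**Figure D1:**
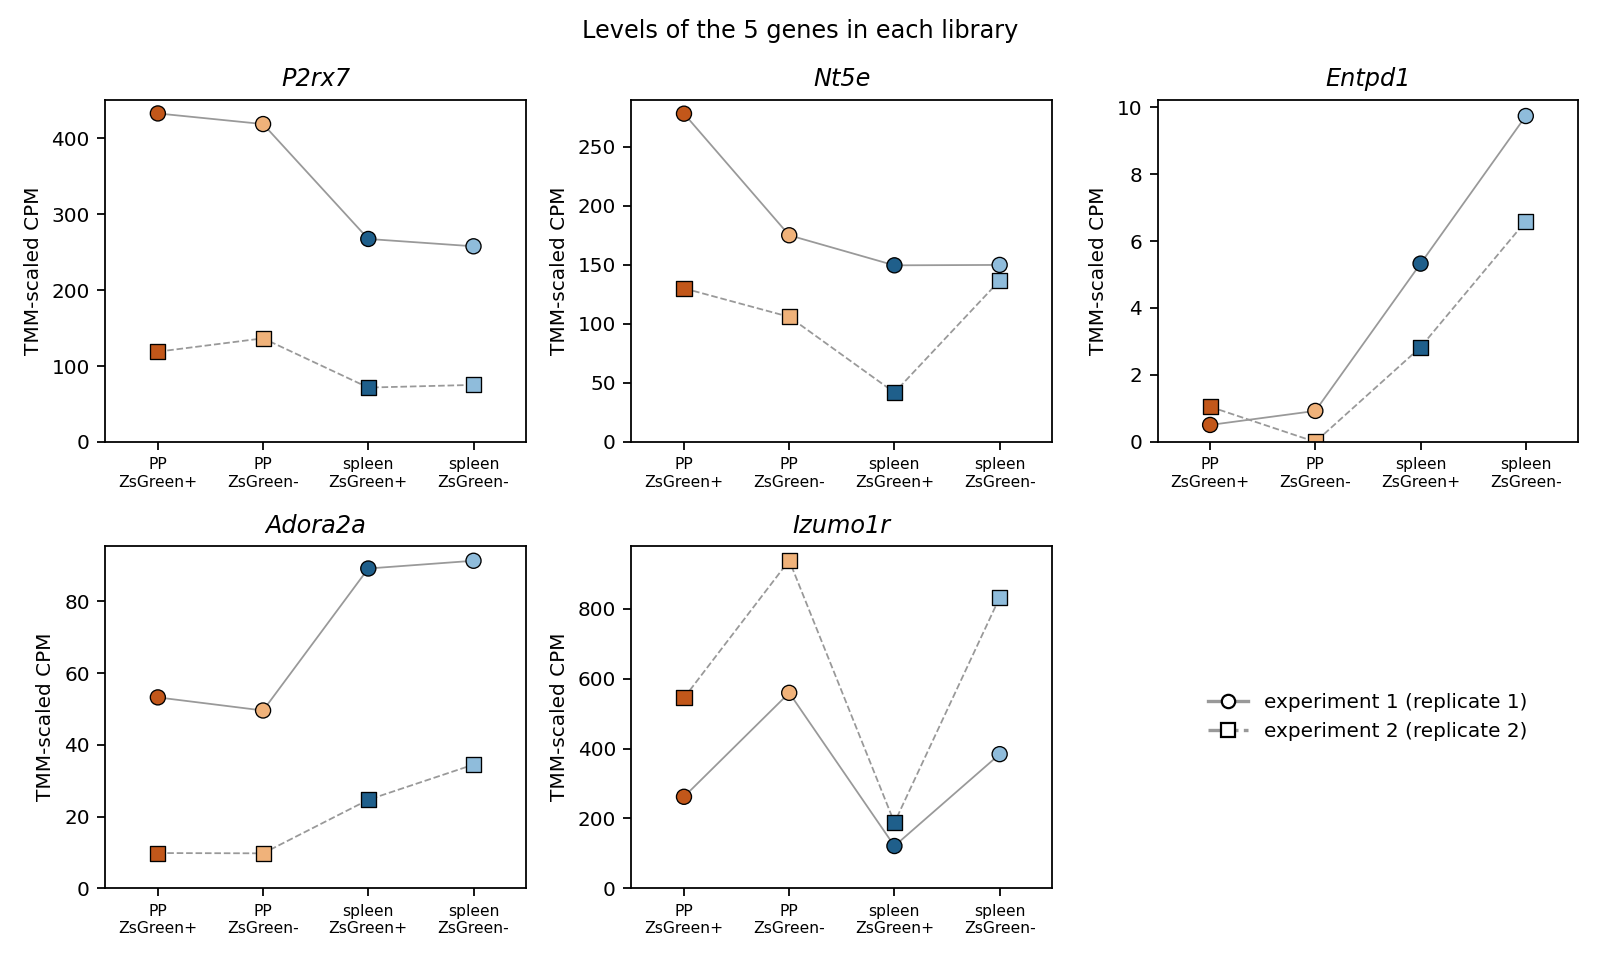
TMM-scaled CPM (vertical axes from 0) of the 5 genes in the 4 groups, 1 point per library; PP is Peyer's patch, circles with solid lines are experiment 1 and squares with dashed lines experiment 2. Within each experiment P2rx7 sits higher in both Peyer's patch libraries than in both spleen libraries, Adora2a and Entpd1 sit lower there, and Izumo1r is lower in ZsGreen+ than in ZsGreen- cells of the same tissue.

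P2rx7 was higher in Peyer's patch than in spleen in both sorts and did not pass the test between ZsGreen+ and ZsGreen- cells in either tissue. The gene (ENSMUSG00000029468, protein coding) lies at chr5:122781974-122829495 on the plus strand of mm39, the build named for the deposited tables, and 1.99% of its exon bases are shared with Mir8115. Levels in replicates 1 and 2 were 433 and 119 CPM in Peyer's patch ZsGreen+ cells and 419 and 136 CPM in Peyer's patch ZsGreen- cells. They were 267 and 71.6 CPM in spleen ZsGreen+ cells and 258 and 75.1 CPM in spleen ZsGreen- cells, where CPM is a gene's share of the library's counts after TMM scaling, in the usual CPM unit. Pooled over experiments the groups overlap, but inside each experiment both Peyer's patch libraries lie above both spleen libraries, and the 2 sorts of a tissue lie close together. The Peyer's patch level was 1.64-fold that of spleen in ZsGreen+ cells (log2 fold change 0.71 ± 0.14 SE, edgeR adjusted p = 0.00535) and 1.72-fold in ZsGreen- cells (0.78 ± 0.14, edgeR adjusted p = 0.00632). Every adjusted p-value given as edgeR's is that of its quasi-likelihood F test, two-sided, adjusted by the Benjamini-Hochberg method across all 14418 genes tested, and a gene was called at an adjusted p under 0.05. The mitochondrial share of counts in replicates 1 and 2 was 4.76% and 4.55% in Peyer's patch ZsGreen+ cells, 4.87% and 6.04% in Peyer's patch ZsGreen- cells, 2.81% and 3.19% in spleen ZsGreen+ cells, and 2.70% and 5.29% in spleen ZsGreen- cells. Within each experiment it was thus higher in Peyer's patch in both sorts, and its part in this and the other tissue differences was not tested. In bulk RNA such a difference cannot be told apart from a different share of cells that carry the transcript. The differences on the log2 CPM scale were 0.69 in experiment 1 and 0.73 in experiment 2 for ZsGreen+ cells, and 0.70 and 0.86 for ZsGreen- cells. Between the sorts the fold of ZsGreen+ over ZsGreen- was 0.949 in Peyer's patch (95% interval 0.771 to 1.17, edgeR adjusted p = 0.944) and 0.996 in spleen (0.807 to 1.23, edgeR adjusted p = 0.988). The ZsGreen+ tissue call was lost without Peyer's patch ZsGreen+ replicate 1 or spleen ZsGreen+ replicate 2 (edgeR adjusted p up to 0.0979), and the ZsGreen- call without Peyer's patch ZsGreen- replicate 2 (0.0824), with the log2 fold change between 0.63 and 0.90 over all fits that left out 1 library.

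Entpd1, the CD39 ectonucleotidase, was scarce in every group and scarcer in Peyer's patch than in spleen. It lies at chr19:40600810-40730046 on the plus strand (ENSMUSG00000048120, protein coding). Counts in replicates 1 and 2 were 9 and 14 in Peyer's patch ZsGreen+ cells, 17 and 0 in Peyer's patch ZsGreen- cells, 100 and 33 in spleen ZsGreen+ cells, and 182 and 43 in spleen ZsGreen- cells. In CPM these were 0.506 and 1.05 in Peyer's patch ZsGreen+ cells, 0.925 and 0 in Peyer's patch ZsGreen- cells, 5.32 and 2.83 in spleen ZsGreen+ cells, and 9.73 and 6.59 in spleen ZsGreen- cells. All 4 spleen libraries lie above all 4 Peyer's patch libraries, 40 counts in all in Peyer's patch against 358 in spleen. The library at 0 allows up to 0.332 CPM, the worth of 3 counts there. In ZsGreen- cells the log2 fold change of Peyer's patch over spleen was -3.98 ± 0.77 (edgeR adjusted p = 0.0147). In ZsGreen+ cells it was -2.32 ± 0.73 (unadjusted p = 0.01, edgeR adjusted p = 0.0679), which is not a call, though DESeq2 gave an adjusted p of 0.0292. edgeR did call it without Peyer's patch ZsGreen+ replicate 2 (-3.48, adjusted p = 0.0174) or without either Peyer's patch ZsGreen- library (adjusted p = 0.0226 and 0.0219), and without Peyer's patch ZsGreen+ replicate 1 it had -1.34 (edgeR adjusted p = 0.403). The ZsGreen- call was lost without spleen ZsGreen- replicate 1 (edgeR adjusted p = 0.0722), and the size rests on few counts: the log2 fold change was -3.29 without the Peyer's patch ZsGreen- library at 0, and -9.63 without the other library of that group. Between the sorts Entpd1 did not pass the test: the log2 fold change of ZsGreen+ over ZsGreen- was 0.64 in Peyer's patch (95% interval -1.30 to 2.57, edgeR adjusted p = 0.915) and -1.02 in spleen (-2.42 to 0.37, edgeR adjusted p = 0.388). Both spleen ZsGreen+ libraries were below the spleen ZsGreen- library of their experiment, while in Peyer's patch the experiments went opposite ways.

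Nt5e, the CD73 enzyme that makes adenosine, was abundant in all groups and was not called in any comparison. It lies at chr9:88209250-88254145 on the plus strand (ENSMUSG00000032420, protein coding). Levels in replicates 1 and 2 were 278 and 130 CPM in Peyer's patch ZsGreen+ cells, 175 and 106 CPM in Peyer's patch ZsGreen- cells, 149.7 and 41.8 CPM in spleen ZsGreen+ cells, and 150.0 and 137 CPM in spleen ZsGreen- cells. The highest library of each experiment was Peyer's patch ZsGreen+ in experiment 1 and spleen ZsGreen- in experiment 2, and the lowest library of all was spleen ZsGreen+ replicate 2. Peyer's patch over spleen in ZsGreen+ cells had a log2 fold change of 1.19 ± 0.41 (unadjusted p = 0.0366, edgeR adjusted p = 0.155), with 0.89 in experiment 1 and 1.63 in experiment 2. DESeq2 called this difference (adjusted p = 0.00436), as did edgeR without spleen ZsGreen+ replicate 1 (1.87, adjusted p = 0.00321) or without either spleen ZsGreen- library. In ZsGreen- cells the same tissue comparison gave -0.11 ± 0.41 (edgeR adjusted p = 0.938). ZsGreen+ over ZsGreen- gave 0.48 ± 0.41 in Peyer's patch (edgeR adjusted p = 0.848) and -0.82 ± 0.42 in spleen (edgeR adjusted p = 0.352). The spleen value came from 1 experiment, with a difference of -1.71 on the log2 scale in experiment 2 and a fall of under 0.01 in experiment 1, and it passed the test without spleen ZsGreen+ replicate 1 (-1.47, edgeR adjusted p = 0.0172).

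Adora2a, the adenosine receptor that raises cyclic AMP, was lower in Peyer's patch than in spleen in both sorts, the opposite tissue direction to P2rx7. It lies at chr10:75152711-75170618 on the plus strand (ENSMUSG00000020178, protein coding). Levels in replicates 1 and 2 were 53.2 and 9.83 CPM in Peyer's patch ZsGreen+ cells and 49.6 and 9.75 CPM in Peyer's patch ZsGreen- cells. They were 89.2 and 24.7 CPM in spleen ZsGreen+ cells and 91.3 and 34.5 CPM in spleen ZsGreen- cells. Within each experiment both Peyer's patch libraries lie below both spleen libraries. The log2 fold change of Peyer's patch over spleen was -0.99 ± 0.23 in ZsGreen+ cells (1.98-fold lower, edgeR adjusted p = 0.0183) and -1.30 ± 0.23 in ZsGreen- cells (2.46-fold lower, edgeR adjusted p = 0.0111). In both sorts the difference was smaller in experiment 1, -0.74 in ZsGreen+ cells and -0.88 in ZsGreen- cells, than in experiment 2, where it was -1.32 and -1.81 for the same 2 sorts. The ZsGreen+ call was lost without Peyer's patch ZsGreen+ replicate 2 or either spleen ZsGreen+ library (edgeR adjusted p up to 0.0979), and the ZsGreen- call without either Peyer's patch ZsGreen- library (up to 0.102). Between the sorts the fold of ZsGreen+ over ZsGreen- was 1.04 in Peyer's patch (95% interval 0.727 to 1.49, edgeR adjusted p = 0.975) and 0.839 in spleen (0.592 to 1.19, edgeR adjusted p = 0.573).

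Izumo1r, which encodes folate receptor 4, was the one gene of the 5 called between the sorts, and it was lower in ZsGreen+ cells in both tissues. It lies at chr9:14797110-14815245 on the minus strand (ENSMUSG00000031933, protein coding). Levels in replicates 1 and 2 were 262 and 545 CPM in Peyer's patch ZsGreen+ cells and 560 and 939 CPM in Peyer's patch ZsGreen- cells. They were 121 and 188 CPM in spleen ZsGreen+ cells and 384 and 833 CPM in spleen ZsGreen- cells. In both experiments the order was Peyer's patch ZsGreen-, spleen ZsGreen-, Peyer's patch ZsGreen+ and spleen ZsGreen+ from high to low. The neighbours at the top of this order did not pass the test (log2 fold change of Peyer's patch over spleen in ZsGreen- cells 0.36, 95% interval -0.02 to 0.73, edgeR adjusted p = 0.314), and the neighbours in the middle were not compared. ZsGreen+ cells had 3.75-fold less Izumo1r than ZsGreen- cells in spleen (log2 fold change -1.91 ± 0.18, edgeR adjusted p = 8.74e-05) and 1.92-fold less in Peyer's patch (-0.94 ± 0.17, edgeR adjusted p = 0.0433). In ZsGreen+ cells Peyer's patch held 2.50-fold the Izumo1r level of spleen (1.32 ± 0.18, edgeR adjusted p = 0.000469). The spleen sort difference was -1.67 in experiment 1 and -2.15 in experiment 2, and the Peyer's patch one -1.09 in experiment 1 and -0.78 in experiment 2. The spleen sort call and the ZsGreen+ tissue call held in all 8 fits that left out 1 library (highest edgeR adjusted p 0.00264 and 0.0158). The Peyer's patch sort call did not hold in 6 of them, those without either library of Peyer's patch ZsGreen+, of Peyer's patch ZsGreen- or of spleen ZsGreen+ cells (edgeR adjusted p up to 0.49, log2 fold change between -1.07 and -0.82).

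Set side by side, the sort comparison in Peyer's patch called 1 of the 5 genes, Izumo1r, lower in ZsGreen+ cells, where 0.437% of all tested genes were called (0.284% higher and 0.153% lower). In spleen it called 1 of the 5, again Izumo1r lower, where 8.62% of genes were called (4.53% higher and 4.09% lower). By the study's own criterion of a fold of at least 1.5 at p under 0.05, Izumo1r was lower in ZsGreen+ cells in both tissues, as were 1.95% of genes in Peyer's patch and 7.47% in spleen. None of the 5 was higher by it, where 2.64% of genes in Peyer's patch and 6.4% in spleen were. Peyer's patch over spleen called 3 of the 5 in ZsGreen+ cells, P2rx7 and Izumo1r higher and Adora2a lower, where 12.7% of genes were called (5.51% higher and 7.17% lower). In ZsGreen- cells it also called 3 of the 5, P2rx7 higher, and Adora2a and Entpd1 lower, where 5.49% of genes were called (1.82% higher and 3.68% lower). Each tissue comparison shares libraries with both sort comparisons. The median log2 fold change of all tested genes lay between -0.03 and 0.01 in the 4 comparisons.

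**Figure D2:**
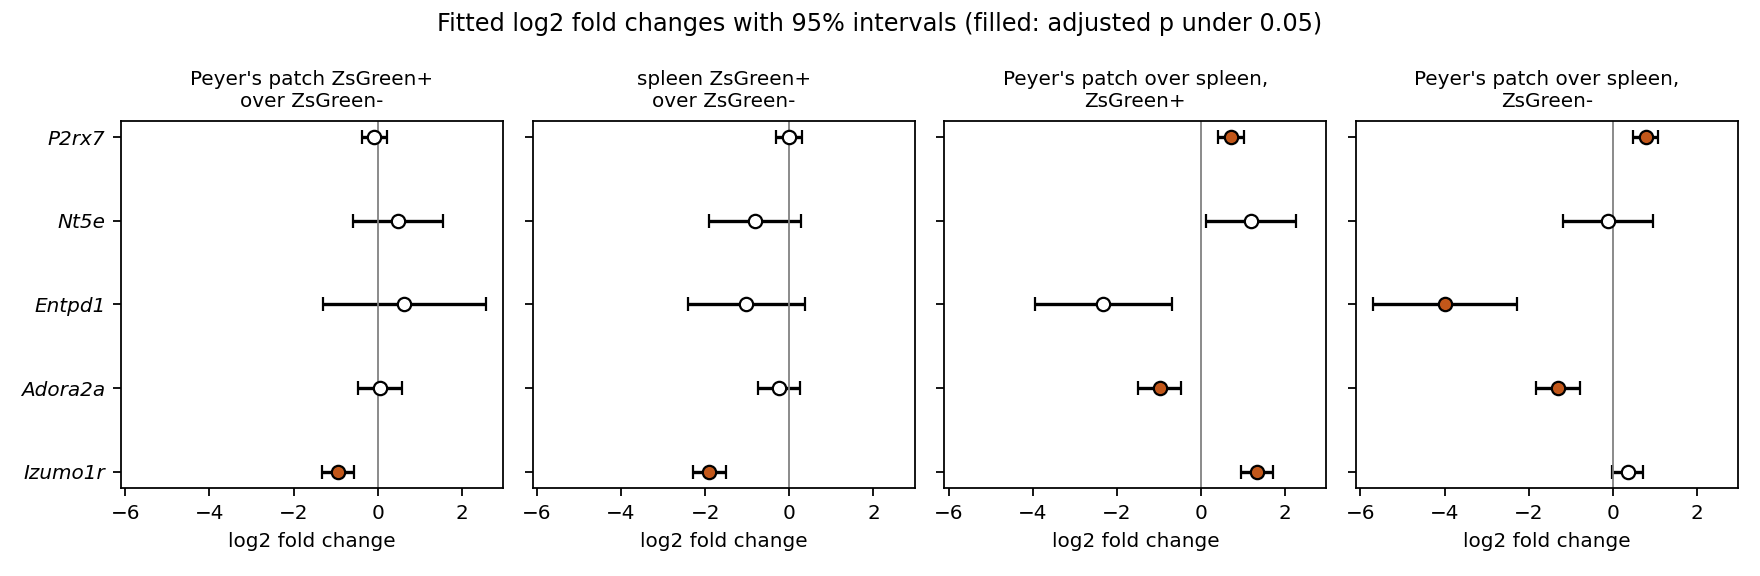
Fitted log2 fold changes (horizontal axes) of the 5 genes in the 4 comparisons, with 95% confidence intervals as bars; filled points have an edgeR adjusted p under 0.05. Izumo1r is the filled point left of 0 in both sort comparisons, at -0.94 in Peyer's patch and -1.91 in spleen, while P2rx7 lies right of 0 in both tissue comparisons (0.71 and 0.78) and Adora2a left of 0 (-0.99 and -1.30).

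Whether the sort difference depended on the tissue was tested directly, as the sort contrast in Peyer's patch minus that in spleen. edgeR called 0 of the 5 genes, where it called 0.0971% of all genes, and 1 of the 5 had an unadjusted p under 0.05, as had 8.48% of all genes. That gene was Izumo1r, with a difference of 0.97 ± 0.24 on the log2 scale (unadjusted p = 0.00197, edgeR adjusted p = 0.194), positive because its fall in ZsGreen+ cells was smaller in Peyer's patch. DESeq2 called it (adjusted p = 0.0105), so the 2 tools differ on whether the fall differs between tissues. P2rx7 had -0.07 ± 0.20 (edgeR adjusted p = 0.968), and Entpd1 had 1.66 ± 1.07 (edgeR adjusted p = 0.755).

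Divided by exon length (the union of exons in GENCODE M21), Izumo1r was the most abundant of the 5 transcripts and Entpd1 the least. Over the 8 libraries the level per kilobase was 52.2 to 405 CPM for Izumo1r with a median of 200.3, and 12 to 72.5 CPM for P2rx7 with a median of 33.0. Nt5e had 4.86 to 32.3 CPM per kilobase, Adora2a 3.18 to 29.8 and Entpd1 0 to 1.74. By CPM among tested genes, Izumo1r stood at the 89.2nd to 99.0th percentile of its library, and Entpd1 at the 2.54th to 39.5th.

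Around P2X7, 23 genes of ATP and NAD sensing, breakdown and release were tested, P2rx7, Entpd1 and Nt5e included. Of these, edgeR called 2 between the sorts in spleen, where 8.62% of all genes were called, and 0 in Peyer's patch, where 0.437% were. In Peyer's patch 1 of the 23, Cd38, had an unadjusted p under 0.05 (log2 fold change 0.68, edgeR adjusted p = 0.132) and DESeq2 called 1. Between tissues 3 of the 23 were called in ZsGreen+ and 4 in ZsGreen- cells, where 12.7% and 5.49% of all genes were. Of 14 ATP and nucleotide receptors listed, 3 were tested (P2rx7, P2rx4 and P2ry14), and P2rx7 was the one called in any comparison. P2rx4, another ATP-gated channel, had 6.66 to 15.2 CPM over the 8 libraries. Of the ectonucleotidases Enpp1 was tested beside Entpd1 and Nt5e, at 9.86 to 20.7 CPM, and was not called. Among 5 tested NAD ectoenzymes, Art2b and Cd38 were called in spleen, 1 lower and 1 higher in ZsGreen+ cells. Art2b encodes ARTC2.2, which in mice attaches ADP-ribose from NAD to P2X7 and so opens it. Its levels in replicates 1 and 2 were 248 and 259 CPM in Peyer's patch ZsGreen+ cells, 223 and 279 CPM in Peyer's patch ZsGreen- cells, 96.4 and 81.5 CPM in spleen ZsGreen+ cells, and 139 and 163 CPM in spleen ZsGreen- cells. Like P2rx7, it was higher in Peyer's patch than in spleen, by a log2 fold change of 1.50 in ZsGreen+ cells (edgeR adjusted p = 0.00011) and 0.73 in ZsGreen- cells (edgeR adjusted p = 0.017), and unlike P2rx7 it was called lower in spleen ZsGreen+ than in spleen ZsGreen- cells (-0.75, edgeR adjusted p = 0.0123). Reads of Art2b and its near-identical neighbour Art2a may have been split between them, so its level is uncertain. The ZsGreen+ tissue call held without any 1 library, the ZsGreen- one was lost without Peyer's patch ZsGreen- replicate 2 or spleen ZsGreen- replicate 1 (up to 0.19), and the spleen sort call was lost without spleen ZsGreen+ replicate 2 or spleen ZsGreen- replicate 2 (up to 0.195). Cd38, which consumes NAD, had 41.4 and 54.8 CPM in spleen ZsGreen+ cells and 24.1 and 37.4 CPM in spleen ZsGreen- cells (0.67, edgeR adjusted p = 0.0202, lost without any 1 of these libraries, up to 0.2). Of 12 tested genes of ATP release and P2X7 effectors, Pycard, the inflammasome adaptor ASC, was called lower in Peyer's patch than in spleen in ZsGreen+ cells (-0.91, edgeR adjusted p = 0.0015) and in ZsGreen- cells (-0.60, edgeR adjusted p = 0.0318), and it held without any 1 library in ZsGreen+ cells and was lost without any 1 of the 4 ZsGreen- libraries (up to 0.258). Between the sorts edgeR and DESeq2 called 0 of the 12, with 0 in Peyer's patch and 1 in spleen at an unadjusted p under 0.05 by edgeR.

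**Figure D3:**
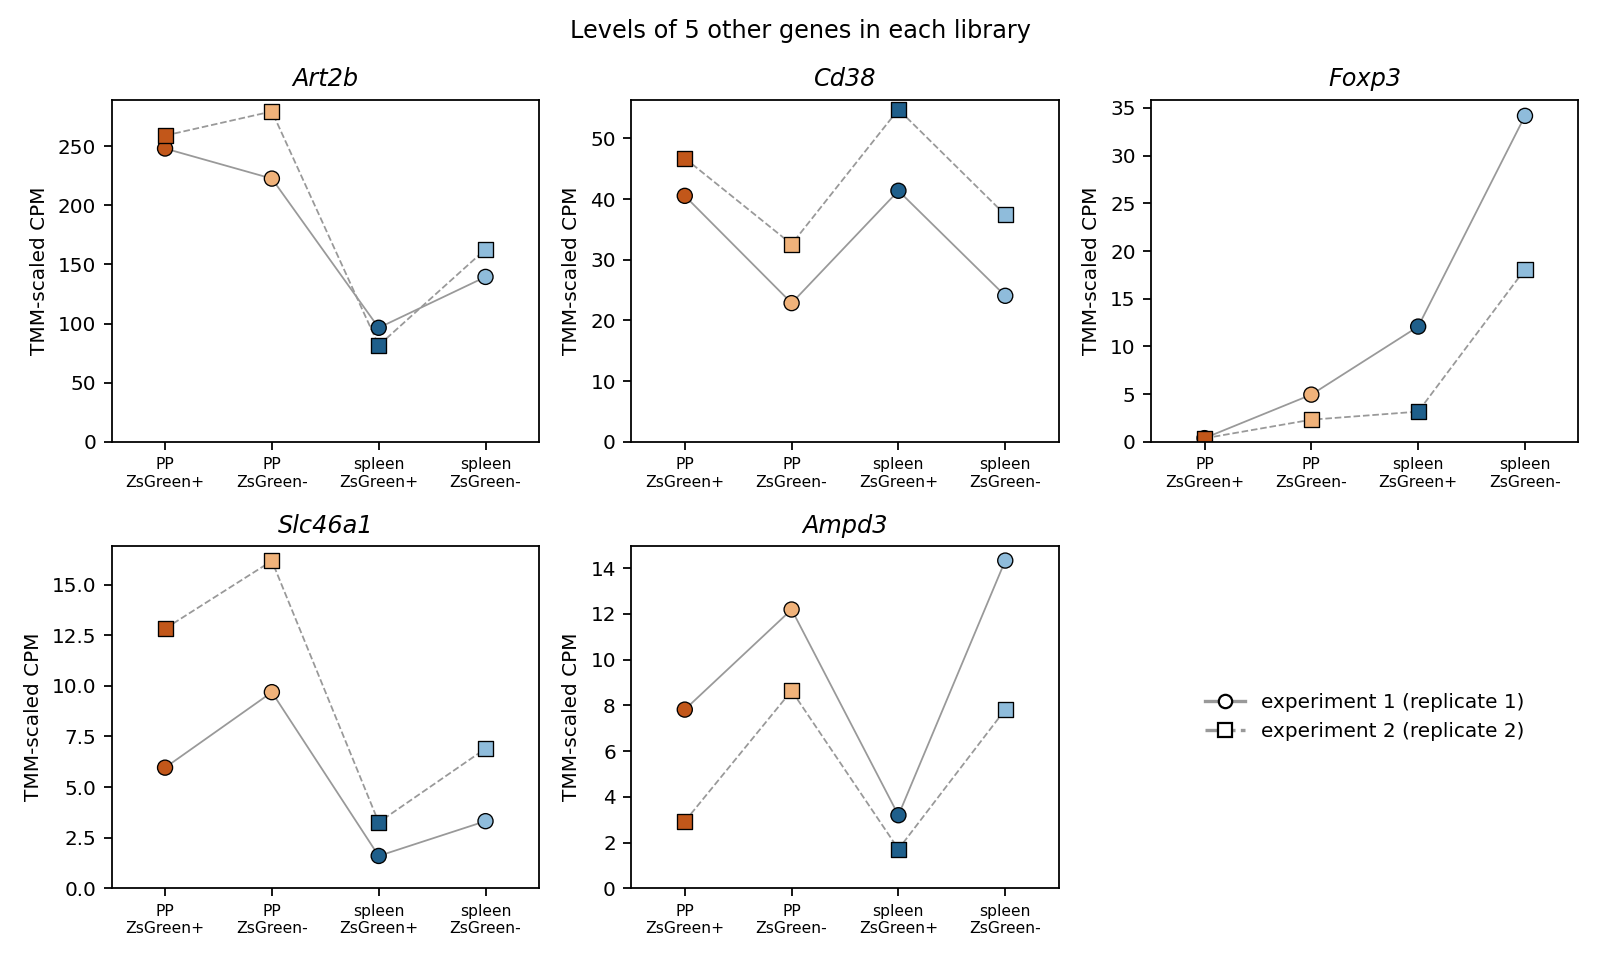
TMM-scaled CPM (vertical axes from 0) of 5 further genes in the 4 groups, 1 point per library, with experiment 1 as circles and solid lines and experiment 2 as squares and dashed lines: Art2b, Cd38, Foxp3, Slc46a1 and Ampd3. Art2b and Slc46a1 sit higher in both Peyer's patch groups than in spleen within each experiment, and Foxp3 sits lowest in Peyer's patch ZsGreen+ cells and highest in spleen ZsGreen- cells.

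Transcripts of Ampd3 and Adk, enzymes that consume AMP and adenosine, were lower in spleen ZsGreen+ than in spleen ZsGreen- cells. Levels of AMP and adenosine, inside or outside the cells, were not measured. Among 10 tested genes of adenosine handling, 2 were called lower and none higher in spleen, where 4.09% of all genes were lower and 4.53% higher. The list median was -0.26 on the log2 scale, beside -0.03 over all genes. In Peyer's patch 0 were called by edgeR or DESeq2, where edgeR called 0.437% of all genes. By edgeR 2 had an unadjusted p under 0.05 there. Ampd3, an AMP deaminase, had 3.19 and 1.71 CPM in spleen ZsGreen+ cells and 14.3 and 7.82 CPM in spleen ZsGreen- cells (-2.17, edgeR adjusted p = 0.00196, held without any 1 library). Adk, the kinase that returns adenosine to AMP, had 42.0 and 188 CPM in spleen ZsGreen+ cells and 63.0 and 295 CPM in spleen ZsGreen- cells (-0.62, edgeR adjusted p = 0.0128, lost without any 1 of these 4 libraries, up to 0.156). Between tissues 2 of the 10 were called higher in Peyer's patch in ZsGreen+ cells, where 5.51% of all genes were. In ZsGreen- cells 1 was called higher and 1 lower, where 1.82% of all genes were higher and 3.68% lower. Dpp4 (CD26), which holds adenosine deaminase at the surface in humans, was higher in Peyer's patch in ZsGreen+ cells (0.90, edgeR adjusted p = 0.00149) and in ZsGreen- cells (0.70, edgeR adjusted p = 0.0136). Adk was lower in Peyer's patch in ZsGreen- cells (-0.64, edgeR adjusted p = 0.0132), a call lost without Peyer's patch ZsGreen- replicate 1 or either spleen ZsGreen- library (up to 0.142). The Dpp4 call in ZsGreen- cells was lost without Peyer's patch ZsGreen- replicate 2 or spleen ZsGreen- replicate 2 (up to 0.166). Ampd3 was also called higher in Peyer's patch in ZsGreen+ cells (1.08, edgeR adjusted p = 0.0474), but not in 7 of the 8 fits without 1 library (up to 0.455) nor by DESeq2 (adjusted p = 0.0523). Adora2a was the one adenosine receptor tested, and Adora1 and Adora3 had 0 or 1 count in experiment 2. edgeR called none of the 12 tested genes of the cyclic AMP relay (G protein, cyclase, kinase and response factors) in any of the 4 comparisons, with 5 at an unadjusted p under 0.05 in spleen, 3 between tissues in ZsGreen+ cells, 2 between tissues in ZsGreen- cells, and 0 in Peyer's patch. DESeq2 called 2 of them lower in spleen ZsGreen+ cells and 1 higher in Peyer's patch than in spleen in ZsGreen+ cells.

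Izumo1r was counted in the list of folate genes, though no folate binding or uptake was measured. edgeR called no other gene of this list lower between the sorts. Of the list's 18 tested genes, Izumo1r and genes of folate uptake and the folate cycle, 1 was called lower in Peyer's patch ZsGreen+ cells. That was Izumo1r itself, in a comparison that called 0.153% of all genes lower, and the list median was -0.03 on the log2 scale. In spleen Izumo1r was called lower and Tyms higher, with a list median of -0.03, and DESeq2 called 2 lower and 1 higher. Of all genes, edgeR called 4.09% lower and 4.53% higher there. Tyms, thymidylate synthase, had 45.4 and 168 CPM in spleen ZsGreen+ cells and 26.3 and 85.4 CPM in spleen ZsGreen- cells (0.88, edgeR adjusted p = 0.00615, lost without spleen ZsGreen+ replicate 1 or spleen ZsGreen- replicate 2, up to 0.105). Slc46a1, the proton-coupled folate transporter, had 5.96 and 12.8 CPM in Peyer's patch ZsGreen+ cells, 9.69 and 16.2 CPM in Peyer's patch ZsGreen- cells, 1.60 and 3.26 CPM in spleen ZsGreen+ cells, and 3.32 and 6.90 CPM in spleen ZsGreen- cells. Both of its tissue differences passed the test, 1.94 in ZsGreen+ cells (edgeR adjusted p = 0.00108) and 1.39 in ZsGreen- cells (edgeR adjusted p = 0.0121), where it was lost without any 1 of the 4 ZsGreen- libraries (up to 0.158). In ZsGreen+ cells Peyer's patch over spleen called 3 genes of the list higher (Slc46a1, Izumo1r and Mthfs) and 1 lower (Tyms, -0.87). The list median was 0.13, and 5.51% of all genes were called higher and 7.17% lower. The Mthfs call was lost without either Peyer's patch ZsGreen+ library or spleen ZsGreen+ replicate 2 (up to 0.2), and that of Tyms without Peyer's patch ZsGreen+ replicate 1 (0.0593). In ZsGreen- cells the tissue comparison called Slc46a1 alone, higher in Peyer's patch as were 1.82% of all genes, with a list median of 0.12.

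**Figure D4:**
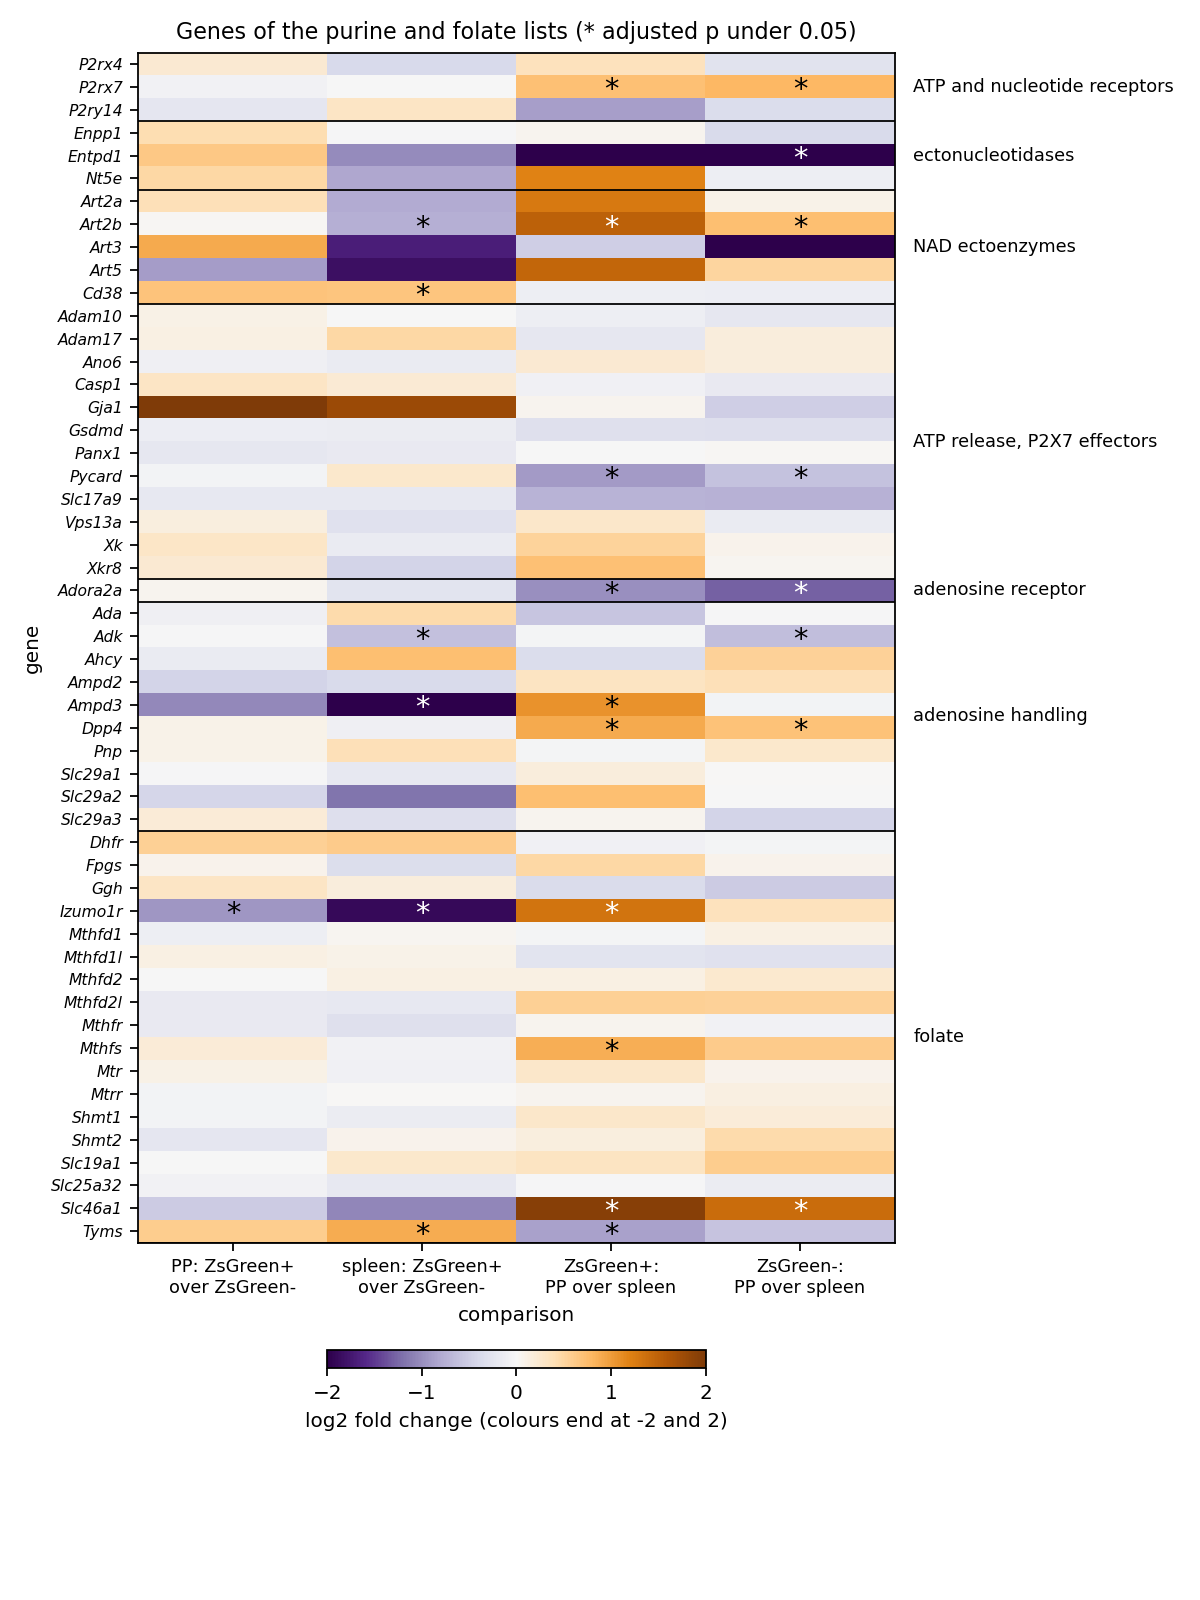
Fitted log2 fold changes (colour, orange higher and purple lower, colours end at -2 and 2) of the tested genes of the purine and folate lists in the 4 comparisons; an asterisk marks an edgeR adjusted p under 0.05. The Peyer's patch sort column holds 1 asterisk, at Izumo1r, and most asterisks stand in the tissue columns, among them P2rx7, Art2b and Slc46a1 in orange and Adora2a and Pycard in purple.

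Folate receptor 4 and CD73 are both used as surface markers of anergic CD4+ T cells, and 12 genes tied to anergy were tested, these 2 included. In spleen ZsGreen+ cells 5 of the 12 were called lower and none higher, with a list median of -0.60 on the log2 scale beside -0.03 over all genes, of which 4.09% were called lower. The 5 include Izumo1r, and the list was chosen with earlier results of these data known, so this is a description and not a test of the list. Without 1 library 1 to 6 of the 12 were called lower, with 1 without replicate 2 of either spleen group and 3 without spleen ZsGreen+ replicate 1. Besides Izumo1r, Nrp1, a receptor also carried by regulatory T cells, was lower by -1.86 (edgeR adjusted p = 0.0405), a call lost without spleen ZsGreen+ replicate 2 or spleen ZsGreen- replicate 2 (up to 0.148) and not made by DESeq2 (adjusted p = 0.127). Dgkz and Dgka, kinases that remove diacylglycerol, had -0.74 (edgeR adjusted p = 0.0299) for Dgkz and -0.62 (edgeR adjusted p = 0.0229) for Dgka, and the ubiquitin ligase Cblb had -0.59 (edgeR adjusted p = 0.022). The Dgka and Cblb calls were lost without any 1 of the 4 spleen libraries (up to 0.23), and that of Dgkz without Peyer's patch ZsGreen- replicate 2, either spleen ZsGreen+ library or spleen ZsGreen- replicate 2 (up to 0.219). In Peyer's patch Izumo1r was the 1 gene of the 12 called, where 0.437% of all genes were called, and the list median was -0.03. Between tissues in ZsGreen+ cells, 1 of the 12 was called higher in Peyer's patch (Izumo1r) and 3 lower, with a list median of 0.21. Of all genes, 5.51% were called higher and 7.17% lower there. The 3 lower genes were Nrp1 (-5.57, edgeR adjusted p = 0.00224), Ndrg1 (-1.92, edgeR adjusted p = 0.025) and Egr3 (-1.40, edgeR adjusted p = 0.0185). In ZsGreen- cells Nrp1 (-6.01, edgeR adjusted p = 0.00228) and Ndrg1 (-2.06, edgeR adjusted p = 0.0367) were called lower and none higher. The list median was -0.12, and 3.68% of all genes were called lower and 1.82% higher. Both Nrp1 tissue calls held without any 1 library. The Egr3 call was lost without either spleen ZsGreen+ library, Peyer's patch ZsGreen+ replicate 1 or either Peyer's patch ZsGreen- library (up to 0.143). The Ndrg1 call in ZsGreen+ cells was lost without either Peyer's patch ZsGreen+ library, Peyer's patch ZsGreen- replicate 1 or spleen ZsGreen+ replicate 2 (up to 0.337), and the one in ZsGreen- cells without any 1 of the 4 ZsGreen- libraries (up to 0.259).

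Of the regulatory T cell markers, Foxp3, their defining factor, was lower in ZsGreen+ cells of both tissues, as Izumo1r was, although the gate excludes CD25+ cells. Between tissues in ZsGreen+ cells the 2 genes went opposite ways, Foxp3 lower and Izumo1r higher in Peyer's patch. Foxp3 had 0.394 and 0.375 CPM in Peyer's patch ZsGreen+ cells, 4.95 and 2.33 CPM in Peyer's patch ZsGreen- cells, 12.1 and 3.17 CPM in spleen ZsGreen+ cells, and 34.2 and 18.1 CPM in spleen ZsGreen- cells. In replicates 1 and 2 of Peyer's patch ZsGreen+ cells, 3 counts are worth 0.169 and 0.225 CPM. The size of each Foxp3 difference with that group thus rests on few counts. It was lower in ZsGreen+ cells in Peyer's patch (-3.25, edgeR adjusted p = 0.0118, lost without Peyer's patch ZsGreen+ replicate 1 or either Peyer's patch ZsGreen- library, up to 0.242) and in spleen (-1.90, edgeR adjusted p = 0.00292), and lower in Peyer's patch than in spleen in ZsGreen+ cells (-4.22, edgeR adjusted p = 0.000101) and in ZsGreen- cells (-2.88, edgeR adjusted p = 0.000399). Of 12 tested regulatory T cell markers, 2 were called lower in Peyer's patch ZsGreen+ cells (Foxp3 and Gpr83), where 0.153% of all genes were. In spleen ZsGreen+ cells 4 were lower (Foxp3, Gpr83, Ikzf2 and Lrrc32) and 2 higher (Il2ra and Tnfrsf9). Of all genes, 4.09% were lower and 4.53% higher there. The list medians were 0.19 in Peyer's patch and 0.02 in spleen on the log2 scale. The Gpr83 call was lost without any 1 of the 4 Peyer's patch libraries (edgeR adjusted p up to 0.23) and held without any 1 library in spleen. In spleen the Tnfrsf9 call was lost without any 1 of the 4 spleen libraries (up to 0.193), and that of Ikzf2 without replicate 2 of either spleen group (0.0732). The Il2ra call was lost without spleen ZsGreen+ replicate 1 or spleen ZsGreen- replicate 2 (up to 0.131), and that of Lrrc32 without replicate 1 of either spleen group or either Peyer's patch ZsGreen- library (up to 0.306). Between tissues in ZsGreen+ cells, Peyer's patch over spleen called 4 of the 12 lower (Foxp3, Il2ra, Tnfrsf9 and Capg) and 2 higher (Ikzf2 and Gpr83). The list median was -0.97, and 7.17% of all genes were called lower and 5.51% higher. In ZsGreen- cells it called 4 lower (Foxp3, Il10, Tnfrsf9 and Capg) and none higher. The list median was -0.76, and 3.68% of all genes were called lower and 1.82% higher. In ZsGreen+ cells the 4 lower calls held without any 1 library, that of Ikzf2 was lost without Peyer's patch ZsGreen+ replicate 1 (0.0866) and that of Gpr83 without replicate 2 of either ZsGreen+ group (up to 0.159). In ZsGreen- cells those of Foxp3 and Tnfrsf9 held, that of Capg was lost without Peyer's patch ZsGreen- replicate 2 or either spleen ZsGreen- library (up to 0.0856), and that of Il10 without either Peyer's patch ZsGreen- library or spleen ZsGreen- replicate 2 (up to 0.209). Il2ra, which encodes CD25, had 20.7 and 13.6 CPM in spleen ZsGreen+ cells and 4.97 and 3.22 CPM in spleen ZsGreen- cells. The summed level of the 12 was 733 to 986 CPM in Peyer's patch ZsGreen+ cells, 519 to 841 CPM in Peyer's patch ZsGreen- cells, 546 to 1785 CPM in spleen ZsGreen+ cells and 659 to 1421 CPM in spleen ZsGreen- cells, and Lrrc32 was at 0 in replicate 1 of both ZsGreen+ groups and Il10 in Peyer's patch ZsGreen+ replicate 2. Their part in the Izumo1r and Entpd1 differences was not tested.

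Other cell types that carry CD39 or P2X7 were also looked for by markers. The summed level of 10 myeloid markers was 30.8 to 39.2 CPM in Peyer's patch ZsGreen+ cells, 32.0 to 35.2 CPM in Peyer's patch ZsGreen- cells, 10.1 to 17.3 CPM in spleen ZsGreen+ cells and 19.0 to 24.9 CPM in spleen ZsGreen- cells. That of 11 B cell markers was 12.1 to 97.0 CPM in Peyer's patch ZsGreen+ cells, 20.7 to 105 CPM in Peyer's patch ZsGreen- cells, 6.09 to 7.83 CPM in spleen ZsGreen+ cells and 19.9 to 38.6 CPM in spleen ZsGreen- cells. Within each experiment and sort the summed level of both lists was higher in Peyer's patch than in spleen, though for B cell markers in ZsGreen- cells of experiment 2 only as 20.7 against 19.9 CPM. The myeloid list median of Peyer's patch over spleen was 0.06 on the log2 scale in ZsGreen+ cells, with Lyz2 and Cd68 called higher and Itgam lower, and -0.84 in ZsGreen- cells, where the sum and the median differ in sign. The Lyz2 call held without any 1 library, that of Cd68 was lost without Peyer's patch ZsGreen+ replicate 2 or either spleen ZsGreen+ library (up to 0.137), and that of Itgam in 6 of the 8 fits, all but those without replicate 2 of either ZsGreen- group (up to 0.284). The B cell list medians were 2.84 in ZsGreen+ and 3.15 in ZsGreen- cells. Of the 11 B cell markers, 6 were at 0 in spleen ZsGreen- replicate 1 and 5 in replicate 2. Pax5 (4.62), H2-Aa (2.89) and Cd22 (2.57) were called higher in ZsGreen+ cells, and Pax5 (2.78) in ZsGreen- cells. The H2-Aa call was lost without either library of either ZsGreen+ group (2.21 to 3.21 without 1 library). Those of Pax5 and Cd22 in ZsGreen+ cells held without any 1 library. The Pax5 call in ZsGreen- cells was lost without spleen ZsGreen- replicate 1 (2.10 to 3.54 without 1 library). Between the sorts Cd22 was called lower in ZsGreen+ cells in Peyer's patch (-1.77, edgeR adjusted p = 0.0118) and in spleen (-4.15, edgeR adjusted p = 1.81e-05). The Peyer's patch Cd22 call was lost without Peyer's patch ZsGreen- replicate 1 (-2.03 to -1.41 without 1 library), and the spleen one held. The B cell list medians between the sorts had the other sign, 0.30 in Peyer's patch and 2.16 in spleen. The summed level of the CD8 and NK cell markers was 47.6 to 67.1 CPM in Peyer's patch ZsGreen+ cells, 56.0 to 73.3 CPM in Peyer's patch ZsGreen- cells, 19.1 to 34.9 CPM in spleen ZsGreen+ cells and 22.9 to 33.9 CPM in spleen ZsGreen- cells. Of these markers Klrb1c, an NK cell receptor gene, was called higher in Peyer's patch in both sorts (1.40 in ZsGreen+ and 1.69 in ZsGreen- cells, held without any 1 library), while the list medians were -0.15 in ZsGreen+ and -0.44 in ZsGreen- cells. Of 5 γδ T cell markers listed, 2 were tested, Trdc and Sox13, and Sox13 was at 0 in Peyer's patch ZsGreen+ replicate 1. These 2 summed to 2.70 to 5.93 CPM in Peyer's patch ZsGreen+ cells and 15.2 to 24.9 CPM in Peyer's patch ZsGreen- cells. In spleen they summed to 5.27 to 13.5 CPM in ZsGreen+ cells and 15.2 to 90.1 CPM in ZsGreen- cells. In both tissues all ZsGreen+ libraries thus lay below all ZsGreen- libraries in this sum, as those of Izumo1r did within each experiment. Trdc was called lower in spleen ZsGreen+ cells (-2.29, edgeR adjusted p = 0.0398). That call was lost without either library of either ZsGreen+ group (-2.95 to -1.37 without 1 library). Ms4a1, a B cell surface marker, was at 0 in both spleen ZsGreen- libraries, and 5 of the 10 myeloid markers were at 0 in Peyer's patch ZsGreen+ replicate 2. In replicate 1 of both Peyer's patch groups, however, all 11 B cell and all 10 myeloid markers were above 0. All 10 myeloid markers were also above 0 in spleen ZsGreen- replicate 1. Of 10 Tfh markers, 6 were called higher in Peyer's patch than in spleen in ZsGreen+ cells, where 5.51% of all genes were. Without 1 library this count was 2 to 7, with 2 without spleen ZsGreen+ replicate 2 and 3 without Peyer's patch ZsGreen+ replicate 1. In spleen 4 of the 10 were lower in ZsGreen+ than in ZsGreen- cells, where 4.09% of all genes were. That count was 1 to 6 without 1 library, with 1 without replicate 2 of either spleen group, 2 without Peyer's patch ZsGreen- replicate 1 and 6 without spleen ZsGreen- replicate 1. The largest fall was that of Cxcr5, the transcript of a marker of the gate (-1.69, edgeR adjusted p = 0.000127, -1.86 to -1.54 without 1 library). Cxcr5 was also higher in Peyer's patch than in spleen, by 2.47 in ZsGreen+ cells (edgeR adjusted p = 1.07e-05) and 1.08 in ZsGreen- cells (edgeR adjusted p = 0.00229). The part of these cells and markers in the P2rx7, Adora2a and Izumo1r differences was not tested.

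For each of the 5 genes, the genes with the most similar pattern over the 8 libraries were listed by Pearson's r of log2 CPM after each experiment's mean was removed, among genes with a mean of at least 5 CPM. The 8 libraries are 4 groups in 2 experiments, so these values are a description with no test. For P2rx7 they were Acat2 (r = 0.995), Sypl, Adam19, Mapk3 and Scn8a (0.991). For Adora2a they were Tsc22d3 (0.99), Tagap, Klf6, Rtn4 and Junb (0.984), and for Izumo1r Kcnn4 (0.99), Vmac, Mgrn1, Cul9 and Bmp7 (0.983). For Nt5e they included Iars2 (0.984), AU040320, Sepsecs and Plxna3 (0.976). Entpd1 was followed most closely by A930005H10Rik (0.986), with Arl4c, Ppp3cc, Sat1 and Slc25a30 (0.959) after it. Entpd1 itself had a mean below 5 CPM, and its Peyer's patch libraries held 0 to 17 counts, so its pattern rests on few counts.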

How the data were processed

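Messenger RNA was measured in 8 libraries of sorted Tfh cells, in 4 groups of 2. Per the labels' protocols, RNA was extracted with Trizol, and the library preparation was either poly A enrichment or a non-directional kit for very low mRNA input, with no statement of which library had which. The submitters' processing notes name Partek, STAR, DESeq2 and mm39, with no versions. The raw tables deposited by the authors hold an estimated count for each gene: over shared genes, 20.8% to 31.2% of a library's values were not whole (tolerance 0.01). The authors' normalized tables hold a signal, which equals these counts times 1 constant per library (0.765 to 1.58). They set it per experiment, since they deposited 1 table for each.

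The tables held 18114 and 20397 genes, and the 16735 in both were used. Estimated counts were rounded, and edgeR 4.0.16 (R 4.3.3) kept 14418 genes by filterByExpr (minimum count 10, minimum total 15). The quasi-likelihood fit used TMM scaling (factors 0.656 to 1.24), a mean per group and an experiment term, with 3 residual degrees of freedom. Standard errors come from the F statistic. CPM are TMM-scaled, log2 CPM have a prior count of 2, and no fold change was shrunk. The precision of each value is limited by 2 libraries per group and, for Entpd1 and other scarce transcripts such as Foxp3 in Peyer's patch ZsGreen+ cells, by their counts. Intervals and the limit of 3 counts for a value of 0 cover counting or model error only.

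The numbers pair the libraries by experiment: deviations from group means correlated across genes within an experiment with r = 0.825 to 0.867 over 6 pairs of groups, so the experiment term is a replicate block and belongs to every fit reported. Alternatives were RLE scaling, DESeq2 1.42.0, no filter, a stricter filter (at least 50 counts in 2 libraries), no block, limma 3.58.1 on the log2 of the authors' signal plus 1, each experiment alone, and leaving out each library. The 5 genes, the gene lists and the rule for named genes (the 5, the called list genes with the largest change, at most 4 per list and comparison, and the 5 most similar genes) were chosen with earlier results of these data known. Genes named outside it for context (P2rx4, P2ry14, Enpp1, Adora1, Adora3, Art2a, Ms4a1 and Il10) are given as values, and some genes are not reported here. Gene ends follow the deposited coordinates, whose end column lies 1 base past the gene. Figures were drawn with matplotlib 3.10.9.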

Additional observations from a re-analysis of the deposited data

Results flagged for a closer look

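On the TMM scale the sort contrast of Nt5e had opposite signs in the tissues. ZsGreen+ was above ZsGreen- in Peyer's patch in both experiments (log2 differences of 0.67 and 0.30), and in spleen it was -1.71 in experiment 2. In experiment 1 the spleen libraries were level, 149.7 CPM in ZsGreen+ and 150.0 CPM in ZsGreen- cells, and ZsGreen+ was the higher by RLE-scaled CPM (151.4 against 150.3), so in spleen the pattern rests on 1 experiment. The fitted difference between the tissues was 1.30 ± 0.58 on the log2 scale, and its own test did not pass (edgeR adjusted p = 0.67). Adora2a had the same pattern at a smaller size, 0.10 and 0.01 in Peyer's patch and -0.03 and -0.48 in spleen, with a fitted difference of 0.31 ± 0.32 (edgeR adjusted p = 0.88).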

How the results depend on the processing

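Izumo1r in the spleen sort and in the ZsGreen+ tissue comparison was called under RLE scaling, DESeq2, both filters, limma on the authors' signal and in all fits without 1 library. The other 6 calls also held under RLE scaling, DESeq2, both filters and limma on the signal. Without the experiment term (no replicate block), 0 of the 5 genes were called in the Peyer's patch sort, the spleen sort and both tissue comparisons, and 0 genes of all 14418 were called in any of them. DESeq2 called 5 of the 5 in the ZsGreen+ tissue comparison (edgeR 3) and 1, Izumo1r, for the difference between the sort contrasts (edgeR 0). Leaving out 1 library gave 0 to 1 of the 5 in the Peyer's patch sort, 1 to 2 in the spleen sort, 1 to 4 in the ZsGreen+ tissue comparison, 1 to 3 in the ZsGreen- one and 0 to 0 in the difference between sort contrasts. In the Peyer's patch sort DESeq2 called 147 of all genes and edgeR 63, and for the difference between sort contrasts 144 and 14, against 47 by edgeR with no filter.

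Directions that turned belonged to values that were not called. P2rx7 in the spleen sort was -0.01, but 0.0252 under RLE scaling, 0.0264 by DESeq2, 0.026 with no block and 0.0078 by limma on the signal. Without 1 library, P2rx7 ranged from -0.20 to 0.0367 in the Peyer's patch sort, from -0.0867 to 0.0676 in the spleen sort, and from -0.19 to 0.0441 for their difference. Adora2a ranged from -0.30 to 0.34, from -0.65 to 0.12 and from -0.0633 to 0.71 in the same 3 comparisons. Entpd1 in the Peyer's patch sort ranged from -0.42 to 6.24, and Nt5e between tissues in ZsGreen- cells from -0.60 to 0.46. A fit without 1 library leaves its group with a single library, assumed to vary like the others. Scarcity of the transcript limits Entpd1 in Peyer's patch, where 40 counts in 4 libraries carry its values. With 2 libraries per group, a difference that was not called may be present.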
